A study of Mus musculus with 16 samples.

Results

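The 10 genes Scgb1a1, Scgb3a1, Scgb3a2, Cyp2f2, Bpifb1, Bpifa1, Cckar, Pigr, Muc5b and Trp63, which mark the secretory cells of the lung airway and its basal cells, were followed in primary mouse alveolar cells. They were taken by name from the array annotation, and each gene was represented by its non-control probe with the highest mean log2 signal over all arrays, which made 10 genes of 34832 gene names on the array. The series holds 16 one-colour arrays of primary alveolar type II cells from lungs of C57BL/6 mice, with 4 arrays in each of 4 groups: hyperoxia (85% O2) for 24 h, normoxia (21% O2) for 24 h, hyperoxia (85% O2) for 6 h and normoxia (21% O2) for 6 h. The labels name no genetic change and no agent other than oxygen, and give neither the age of the mice, the purity of the cells, nor whether replicates came from separate animals or cultures. The p-values below therefore measure the spread between these samples, which may be technical.

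Club cells are secretory cells of the bronchiolar epithelium that also act as progenitors of the airway lining. They release small secretoglobins and other protective proteins onto the airway surface and hold enzymes that metabolise inhaled chemicals, while goblet cells make mucins and basal cells renew the larger airways. Type II cells, by contrast, line the alveoli and make surfactant.

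The levels below are log2 signals relative to the 75th percentile of each array, so that 0 is the level of that percentile, and a level is read within its own probe, since probes differ in how brightly they report a given amount of RNA. Where a gene is called the brightest of a list below, this is its probe's signal and served only to choose a gene to name, and summed list levels are weighted towards bright probes in the same way. A probe was counted as measured on an array where Agilent's software marked it as well above background. The 75th percentile itself lay between 556 and 801 signal units at 24 h and between 899 and 1021 at 6 h, and 53.6% to 69.0% of all probes were well above background on an array. The 24 h groups shared 1 slide and the 6 h groups a second, so that a difference between times and one between slides cannot be told apart, and on each slide hyperoxia and normoxia took different rows, so oxygen and row cannot be told apart either. Of the type II markers 12 of 13 were tested, among them Sftpc, Sftpb and Sftpd, the surfactant protein genes, measured on all 16 arrays, while the phosphate transporter gene Slc34a2 was measured on 0 of 16. A fall in such bulk samples does not tell fewer cells of a type from less RNA per cell.

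The probes decide what each gene name stands for, so the stretches that matter are shown first, as 30 of 60 bases, 5′ to 3′, with the positions of mm9 that the array annotation gives. In the first 2 the capitals mark an exact tandem repeat of 3 bases; these are the rule's probes for Pigr and Trp63.
Pigr, brightest probe (chr11:120890958-120891017, minus strand): AAGAAGAAGAAGAAGAAGAAGAAGAAGAAG
Trp63, brightest probe (chr16:25871159-25871218, plus strand): tacagGCAGCAGCAGCAGCAGCAGCAccag
Pigr, other probe (chr1:132748041-132748100, plus strand): tcatgattttcagatgagaagagatgtttc
Trp63, next brightest probe (chr16:25821344-25821403, plus strand): acttaccatgtgtcctggctatagcttttc
In the next pair the capitals mark bases that the 2 Bpifb1 probes share, the probes overlapping by 35 bases.
Bpifb1, brightest probe (chr2:154046044-154046103, plus strand): ACTACCCCCCTGCAGTTAATAAACACTTGC
Bpifb1, other probe (chr2:154046019-154046078, plus strand): aagcctactgtgtagACTACCCCCCTGCAG
The last 5 are the other probes that the results turn on, and hold no such repeat.
Scgb1a1 (chr19:9158197-9158256, minus strand): tgaagctcactggatttcagagatattcta
Scgb3a1 (chr11:49478489-49478548, plus strand): gttgaggggaacctgggaaaattctgcctg
Cyp2f2 (chr7:27918570-27918629, plus strand): aatgacgtgacaaaggtgaaatacccgtct
Bpifa1 (chr2:153973411-153973831, plus strand): gcacaacattgctgaattactgatccatgg
Cckar (chr5:54090045-54090104, minus strand): gggactcacttaataagtagctttgaatgc

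The repeat in the Pigr probe runs over 35 bases and the one in the Trp63 probe over 21. Only 0.145% of all 55681 probes hold a 3-base repeat of at least 18 bases, 81 probes in all. Of these 81, 78 were measured on all 16 arrays (96.3%), against 51.9% of all probes. The Pigr probe shares at least 20 bases in a row with 49 other probes, none of which carries the name Pigr, and all 49 were measured on all 16 arrays. It was placed on chromosome 11, whereas the RefSeq gene Pigr lies on chromosome 1, where the other Pigr probe was also placed and where no array gave a signal above background. The Trp63 probe shares 20 bases in a row with a probe of Crebbp. The values listed for Pigr and Trp63 below are therefore those of the probes the rule chose, and whether they measure these genes was not tested.

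By these probes 9 of the 10 genes met the condition for a test, which was to be measured on at least 3 of 4 arrays of some group. Pigr and Trp63 met it by their repeat probes, while the Pigr probe on chromosome 1 was measured on 0 of 16 arrays. The exception was Scgb3a2, the secretoglobin of distal airway cells, whose 2 probes were measured on 0 of 16 arrays. Cyp2f2 and Bpifa1 met the condition through the 6 h groups alone, so that the filter favoured a higher signal at 6 h for them. Muc5b (chr7:149058931-149058990) and Bpifb1 were measured on all 16 arrays, as was Scgb1a1.

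Scgb1a1 encodes the main secretory protein of club cells. Its level was -0.06, 0.16, 0.12 and 0.20 on the hyperoxia arrays of 24 h and -0.76, -0.82, -0.79 and -0.34 on the normoxia arrays of 24 h. On the 6 h arrays it was 4.50, 4.98, 5.52 and 5.53 in hyperoxia and 4.46, 4.62, 5.48 and 5.39 in normoxia. The times lay far apart, every hyperoxia array of 24 h stood above every normoxia array of 24 h, and the 6 h groups overlapped. The group means were 0.10 ± 0.11 in hyperoxia and -0.68 ± 0.23 in normoxia at 24 h, and 5.13 ± 0.49 in hyperoxia and 4.99 ± 0.52 in normoxia at 6 h (SD, n = 4 each), the means of 6 h lying within 1 SD of each other.

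**Figure D1:**
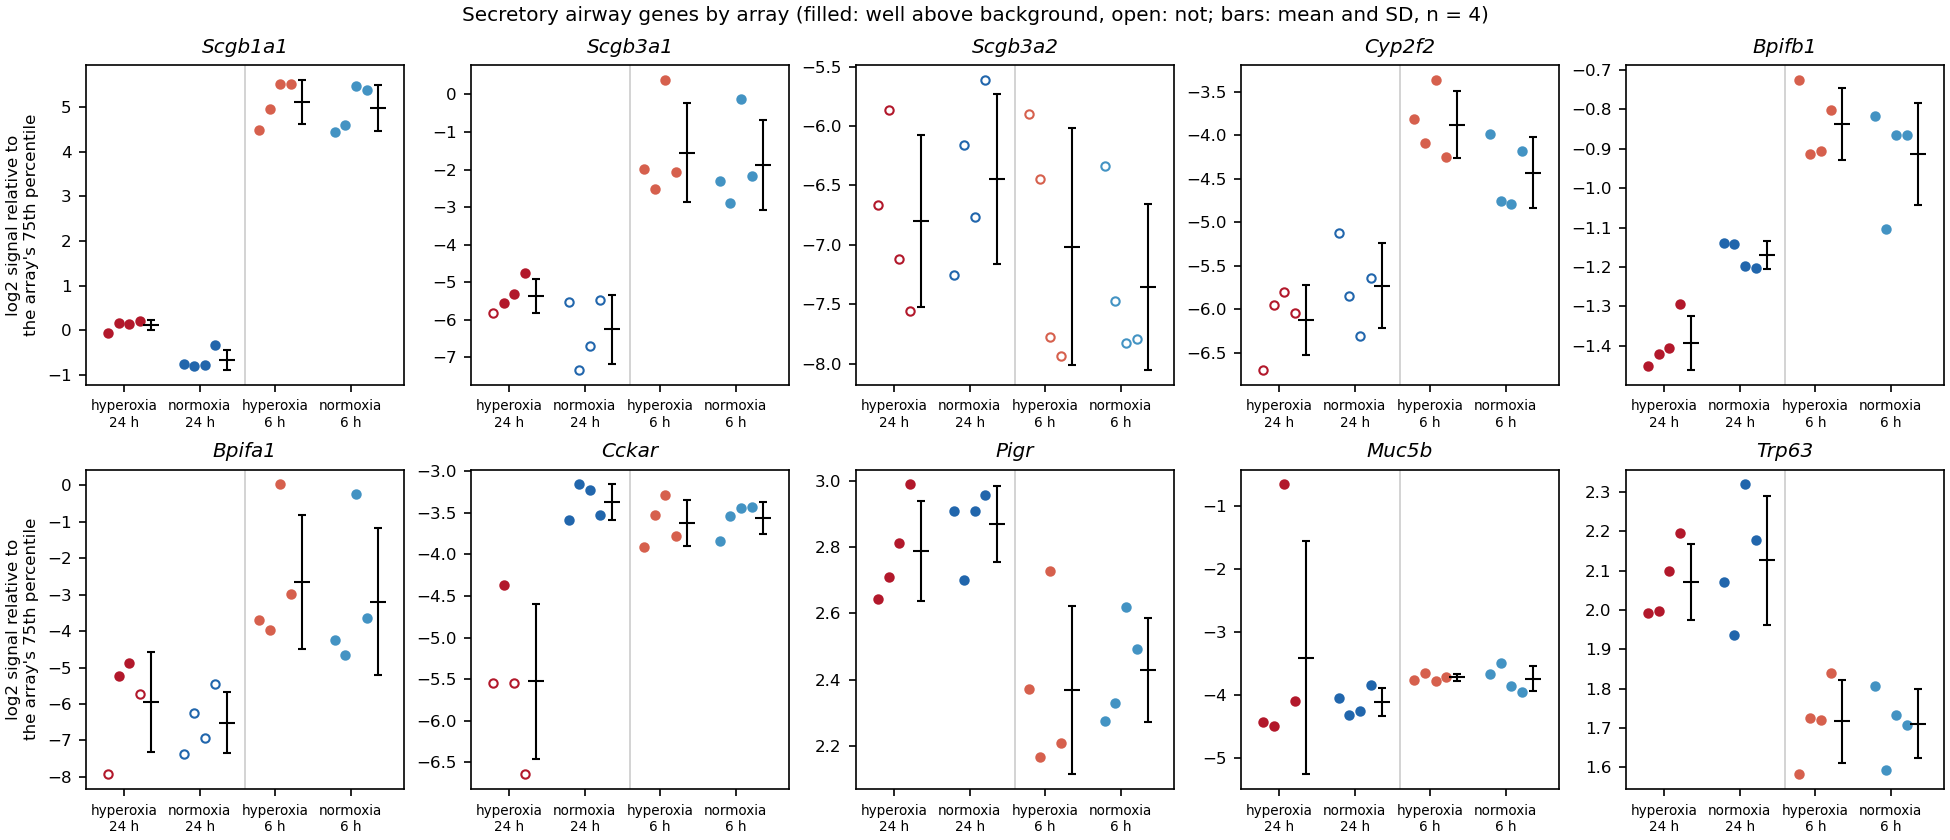
Level of each of the 10 genes on every array, in log2 signal relative to the array's 75th percentile, by oxygen and time group. Each point is an array, open where it was not well above background, and the bars are mean and SD of 4 arrays; Scgb1a1 stands between -0.82 and 0.20 at 24 h and between 4.46 and 5.53 at 6 h, and Muc5b has 1 hyperoxia array of 24 h at -0.66.

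Scgb3a1, a secretoglobin of larger airways, had levels of -5.83, -5.55, -5.32 and -4.77 on the hyperoxia arrays of 24 h, against -5.54, -7.35, -6.69 and -5.48 on the normoxia arrays of 24 h. At 6 h it had -2.00, -2.52, 0.39 and -2.07 in hyperoxia and -2.30, -2.88, -0.13 and -2.18 in normoxia. It was measured on 3 of 4 hyperoxia arrays and 0 of 4 normoxia arrays at 24 h and on all arrays of 6 h. Replicate 3 was far higher than the others in both oxygen groups of 6 h.

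Cyp2f2, a cytochrome P450 of club cells that activates naphthalene, was measured on 0 of 4 arrays of either oxygen group at 24 h and on all arrays of 6 h. Its 6 h levels were -3.81, -4.08, -3.36 and -4.25 in hyperoxia and -3.98, -4.76, -4.79 and -4.18 in normoxia, and the groups overlapped. Bpifa1 (chr2:153973411-153973831), an antibacterial secreted protein also called SPLUNC1, was measured on 2 of 4 hyperoxia and 0 of 4 normoxia arrays at 24 h. Its 24 h levels were -7.94, -5.23, -4.88 and -5.73 in hyperoxia and -7.38, -6.26, -6.94 and -5.46 in normoxia, and overlapped. At 6 h it had levels of -3.70, -3.97, 0.04 and -2.99 in hyperoxia and -4.25, -4.65, -0.23 and -3.65 in normoxia. As for Scgb3a1, replicate 3 was the high array in both oxygen groups.

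This shared high array was looked at after the values were seen. For each of the 55681 probes the gap between replicate 3 and the highest of the other 3 replicates was taken in each oxygen group of 6 h, and the smaller of both gaps was ranked. Bpifa1 stood in place 1 with a gap of 3.03 and Scgb3a1 in place 3 with 2.05 on the log2 scale, and 28 probes had a gap above 1. Scgb1a1, with a gap of -0.01, and Bpifb1, with -0.18, had no such gap. The other replicate numbers of 6 h had 25 to 42 probes with a gap above 1, led for replicate 1 by the muscle gene Myl1 with 3.32 in hyperoxia. The summed level of 12 ciliated cell markers was also highest on replicate 3, with 2.35 in hyperoxia and 2.32 in normoxia. The other 6 h arrays had 1.96 to 2.00 in hyperoxia and 1.88 to 1.95 in normoxia. Basal and neutrophil lists were likewise highest on replicate 3 in both conditions, while fibroblast and smooth muscle markers were lowest (9.77 and 9.85). Type II markers (7.33) and other club cell genes (7.63) were highest there in hyperoxia but not in normoxia (6.83 and 7.41). In the fit with array weights, hyperoxia replicate 3 had the lowest weight of all arrays, 0.223. The part of these lists and of this array in the gaps was not tested.

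**Figure D2:**
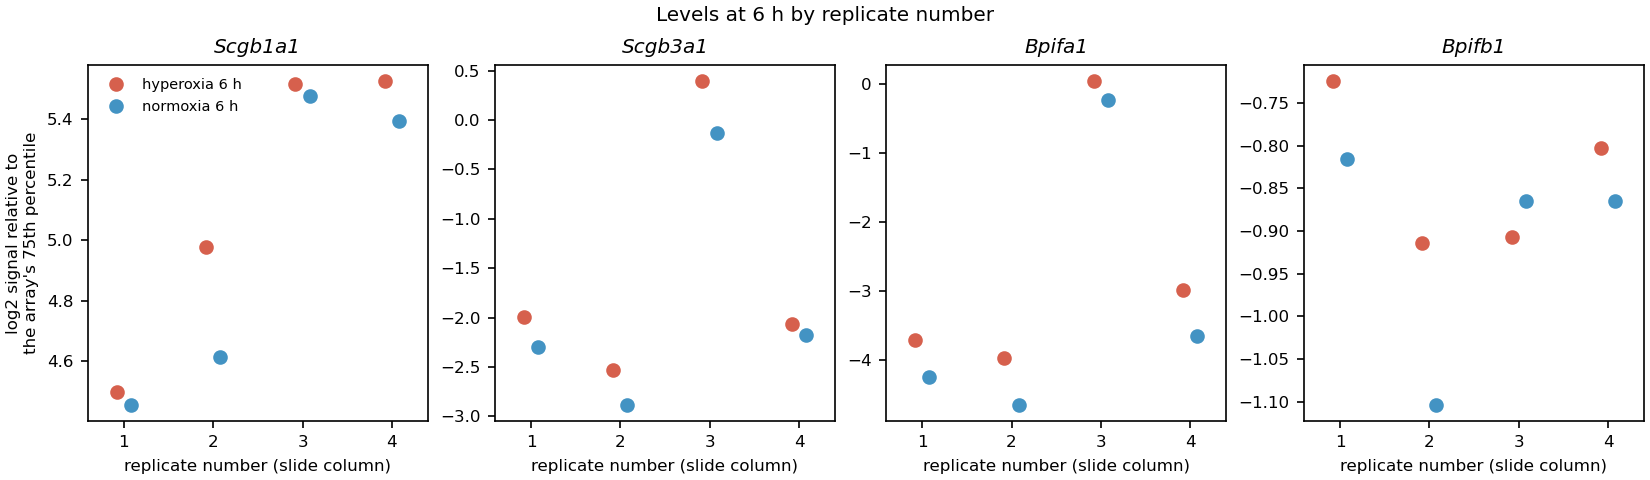
Levels of Scgb1a1, Scgb3a1, Bpifa1 and Bpifb1 on the 6 h arrays, in log2 signal relative to the array's 75th percentile, by replicate number, which is also the column of the slide. Replicate 3 stands apart for Scgb3a1 (0.39 in hyperoxia and -0.13 in normoxia) and for Bpifa1 (0.04 and -0.23), and not for Bpifb1.

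Bpifb1, a secreted relative of the bactericidal permeability-increasing protein made by airway secretory cells, had levels of -1.45, -1.42, -1.41 and -1.29 on the hyperoxia arrays of 24 h and -1.14, -1.14, -1.20 and -1.20 on the normoxia arrays of 24 h. On the 6 h arrays it had -0.72, -0.91, -0.91 and -0.80 in hyperoxia and -0.82, -1.10, -0.87 and -0.86 in normoxia. The 24 h oxygen groups did not overlap and the 6 h groups did. Its other probe, which overlaps the first, gave group means of -3.73 ± 0.13 in hyperoxia and -3.42 ± 0.14 in normoxia at 24 h, and -2.54 ± 0.26 and -2.51 ± 0.61 at 6 h (SD, n = 4 each), so that its means stood in the same order of times with a wider difference.

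Cckar, a receptor for the gut hormone cholecystokinin that was listed with the secretory markers, had levels of -5.55, -4.36, -5.54 and -6.64 on the hyperoxia arrays of 24 h and -3.59, -3.15, -3.22 and -3.53 on the normoxia arrays of 24 h. At 6 h the levels were -3.91, -3.53, -3.29 and -3.78 in hyperoxia and -3.84, -3.54, -3.44 and -3.43 in normoxia. Only the hyperoxia arrays of 24 h were low, and the probe was measured on 1 of 4 of them and on 4 of 4 arrays of each other group.

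Muc5b, a gel-forming mucin gene of the airway, had levels of -4.42, -4.49, -0.66 and -4.10 on the hyperoxia arrays of 24 h and -4.05, -4.32, -4.25 and -3.84 on the normoxia arrays of 24 h. Its 6 h levels lay between -3.78 and -3.65 in hyperoxia and between -3.95 and -3.49 in normoxia. Hyperoxia replicate 3 of 24 h was the 1 high array, and the probe's 1 spot on it carried an outlier flag of the Feature Extraction software, with a signal of 435 units against 34.7 to 44.5 on the other 3 hyperoxia arrays. The value was kept because the probe had no other spot, and differences that include this array are given without it too. Through the shared spread estimate it also enters the SE of the other Muc5b differences.

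The Pigr probe, named for the receptor that carries polymeric immunoglobulin across epithelia, had levels of 2.64 to 2.99 in hyperoxia and 2.70 to 2.96 in normoxia at 24 h. At 6 h the levels were 2.17 to 2.73 in hyperoxia and 2.28 to 2.62 in normoxia. The brightest Trp63 probe, named for the p63 transcription factor of basal cells, lay between 1.99 and 2.20 in hyperoxia and between 1.93 and 2.32 in normoxia at 24 h, and between 1.58 and 1.84 in hyperoxia and between 1.59 and 1.81 in normoxia at 6 h. The next brightest Trp63 probe, without a repeat, had its means in the opposite order of times: -4.84 ± 0.13 in hyperoxia and -4.77 ± 0.58 in normoxia at 24 h, and -4.18 ± 0.29 and -4.36 ± 0.18 at 6 h (SD, n = 4 each). Its 24 h mean was lower by 0.66 in hyperoxia and by 0.41 in normoxia, while the repeat probe's was higher by 0.35 and 0.42. The other 2 Trp63 probes were measured on 1 and 0 of 16 arrays.

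**Figure D3:**
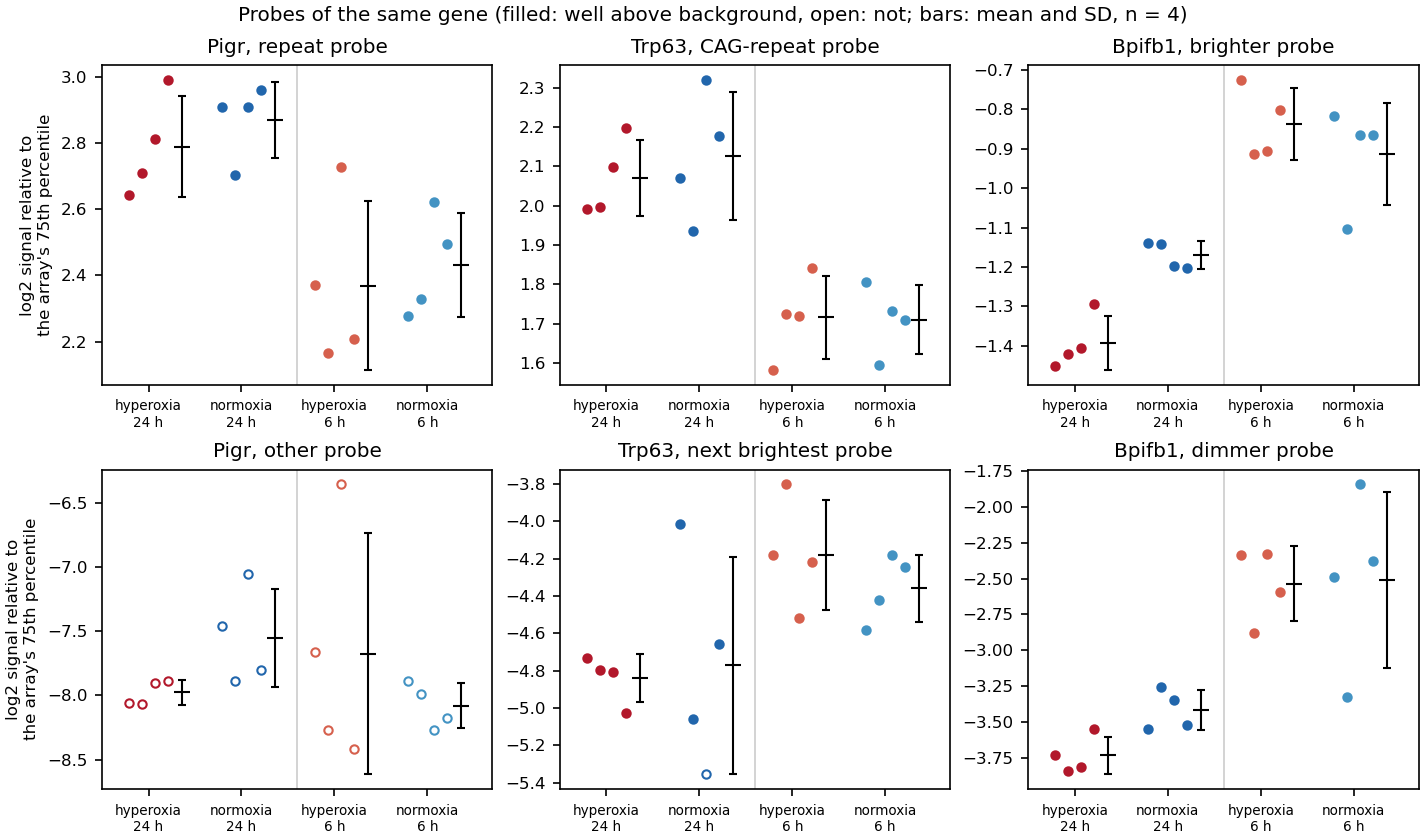
Levels of 2 probes each of Pigr, Trp63 and Bpifb1 on every array, in log2 signal relative to the array's 75th percentile, with mean and SD of 4 arrays and open points where a probe was not well above background. The means of the 2 Trp63 probes stand in opposite order between 24 h and 6 h, the second Pigr probe has open points only, and both Bpifb1 probes are lower at 24 h.

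Groups were compared gene by gene with limma over all 25415 genes tested, and a gene was called where its p adjusted by Benjamini-Hochberg over these genes was under 0.05. Fold changes are on the log2 scale with their SE. At 24 h the genes tested did not move together between the oxygen groups: 1 of 9 rose in hyperoxia, 2 fell and 6 were not called. The repeat probes of Pigr and Trp63 are among the 6. In this comparison 28.3% of all genes were called, 15.5% higher and 12.8% lower, so that 3 of 9 is near the background. The median log2 fold change was -0.05 over the 9 genes and 0.01 over all genes, and 3 of the 9 had groups without overlap, as did 33.2% of all genes.

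Scgb1a1 was 1.72-fold higher in hyperoxia (0.78 ± 0.25, adjusted p = 0.0304). The call ended in 6 of 8 fits that left out 1 array of these groups (normoxia replicates 1, 2 and 3 and hyperoxia replicates 2, 3 and 4; adjusted p = 0.0625 to 0.0711), while the fold change stayed between 0.74 and 0.89 on the log2 scale. The SE of these fits pools the spread of all groups. For Scgb1a1 the SD was 0.11 and 0.23 at 24 h but 0.49 and 0.52 at 6 h (hyperoxia and normoxia). Within pairs of 24 h arrays with the same number, hyperoxia was higher in 4 of 4 for Scgb1a1 (by 0.54 to 0.97). Bpifb1 was 1.17-fold lower (-0.22 ± 0.07, adjusted p = 0.0281), a call that ended in 5 of 8 such fits (normoxia replicates 1 and 2 and hyperoxia replicates 1, 2 and 3; adjusted p = 0.0627 to 0.0780) and with the mean of both its probes (-0.27 ± 0.14, adjusted p = 0.175). Cckar was lower in hyperoxia (-2.15 ± 0.33, adjusted p = 0.000192), and the call held in all 8 such fits. Only 1 of 4 hyperoxia arrays was above background, so the size of this difference rests on signals that are not well measured. With a normexp background correction the Cckar difference was -0.78 ± 0.10 (adjusted p = 1.51e-05). This setting, wherever normexp is named below, also added an offset of 50 signal units. The processed Cckar signals of 24 h were 7.61 to 37.8 units in hyperoxia and 55.5 to 83.9 in normoxia. The part of the offset in the smaller difference was not tested.

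Scgb3a1 was not called (0.90 ± 0.67, adjusted p = 0.360). Same-numbered arrays of the 24 h oxygen groups deviated together, which the main fit and the fits that left out 1 array did not take into account. The replicate number is also the slide column, so paired samples and a column effect cannot be told apart. With the replicate number as a block within each time Scgb3a1 passed (0.90 ± 0.28, adjusted p = 0.0401). Its normoxia group had no array above background, and the bound on its fold did not exceed 1. Bpifa1 (0.57 ± 1.03, adjusted p = 0.739), the Pigr probe (-0.08 ± 0.12, adjusted p = 0.682) and the Trp63 probe (-0.05 ± 0.09, adjusted p = 0.696) were not called. For Cyp2f2 both groups were below background. Muc5b was not called either (0.70 ± 0.61, adjusted p = 0.443), and without hyperoxia replicate 3, the array with the outlier flag, its difference was -0.22 ± 0.13 (adjusted p = 0.276).

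At 6 h 0 of 9 genes were called by limma and 0 had an unadjusted p under 0.05, in a comparison where 0.327% of all genes were called, 0.236% higher and 0.0905% lower. The largest difference was that of Cyp2f2 (0.55 ± 0.28 higher in hyperoxia, adjusted p = 0.721), followed by Bpifa1 (0.54 ± 1.03, adjusted p = 0.983). Scgb1a1 differed by 0.14 ± 0.25 (adjusted p = 0.978). The groups of all 9 genes overlapped, whereas 4.31% of all genes had groups without overlap. Within pairs of arrays with the same number, hyperoxia was higher in 4 of 4 for Scgb1a1 (by 0.04 to 0.36), for Scgb3a1 (by 0.11 to 0.52) and for Bpifa1 (by 0.27 to 0.67). None of them passed with the number as a block within each time (adjusted p = 0.735 for Scgb3a1 and 0.661 for Bpifa1). For Scgb3a1 and Bpifa1 replicate 3 was high in both groups, so leaving out its hyperoxia array alone also breaks up this pair. Their differences were then -0.33 ± 0.59 and -0.36 ± 0.96, against 0.32 ± 0.67 and 0.54 ± 1.03 with all arrays.

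**Figure D4:**
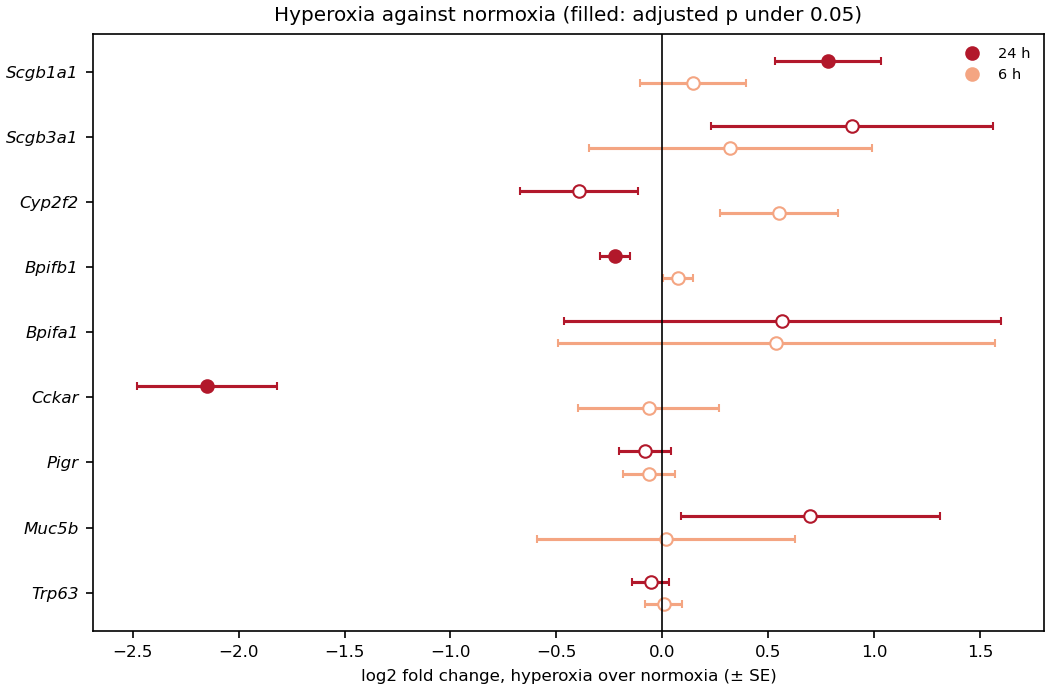
Log2 fold change of hyperoxia over normoxia for the 9 genes tested, at 24 h (dark red) and 6 h (light orange), with SE bars; filled points have an adjusted p under 0.05. At 24 h Scgb1a1 lies at 0.78 and Cckar at -2.15, and no gene is filled at 6 h.

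The difference between the 2 oxygen comparisons, 24 h less 6 h, was called for Cckar alone of the 9 genes (-2.09 ± 0.47, adjusted p = 0.00911), where 12.3% of all genes were called, 6.64% higher and 5.64% lower. For Scgb1a1 it was 0.64 ± 0.36 (adjusted p = 0.290), which was not called but passed with the replicate number as a block within each time (0.64 ± 0.13, adjusted p = 0.0110). For Bpifb1 it was -0.30 ± 0.10 (adjusted p = 0.0678). Bpifb1 passed when hyperoxia replicate 3 of 6 h was left out (-0.32 ± 0.10, adjusted p = 0.0393).

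Between the times Scgb1a1, Scgb3a1 and Bpifb1 were lower at 24 h in both oxygen conditions. Cyp2f2 and Bpifa1 are left out of these counts, since the filter admitted them only through the 6 h groups where they were high. This leaves 7 genes, the repeat probes of Pigr and Trp63 among them. In hyperoxia 4 of 7 fell and 2 rose, where 52.3% of all genes were called, 25.0% higher and 27.3% lower. In normoxia 3 of 7 fell and 2 rose, where 44.1% were called, 20.6% higher and 23.5% lower. With the normexp background correction and its offset of 50 units the balance over all genes turned round. It came to 7961 higher and 4538 lower in hyperoxia, against 6354 and 6947 in the main fit. In normoxia it came to 8520 higher and 3633 lower, against 5243 and 5977. The correction and the offset were not run apart. The median log2 fold change of the 7 genes was -0.56 in hyperoxia and -0.26 in normoxia, while over all genes it was -0.02 in each. Groups did not overlap for 5 of 7 genes in each condition, against 45.3% of all genes in hyperoxia and 44.1% in normoxia.

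Scgb1a1 was 32.6-fold lower at 24 h in hyperoxia (-5.02 ± 0.25, adjusted p = 2.48e-09) and 50.7-fold lower in normoxia (-5.66 ± 0.25, adjusted p = 3.95e-08). Scgb3a1 fell by 3.82 ± 0.67 in hyperoxia (adjusted p = 0.000303), where 3 of 4 arrays of 24 h were above background, and was at least 10.4-fold lower in normoxia (adjusted p = 0.000185). A bound of this kind sets the mean of the 6 h arrays against a floor on each 24 h array, which is the dimmest signal still counted as measured there or the probe's own signal, whichever was higher. Without both 6 h arrays of replicate 3 the Scgb3a1 differences were -3.17 ± 0.42 in hyperoxia and -3.81 ± 0.42 in normoxia, and both calls held. With the normexp correction they were -1.91 ± 0.47 and -1.69 ± 0.47, and both calls held as well.

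For Cyp2f2 and Bpifa1 the filter favoured a lower signal at 24 h in advance, and their values are a description with no test. Cyp2f2 was at least 3.50-fold lower at 24 h in hyperoxia and at least 1.76-fold lower in normoxia. With the normexp correction its differences were -0.52 in hyperoxia and -0.0045 in normoxia, against -2.25 and -1.30 without it. Bpifa1 had a mean of -5.94 ± 1.37 at 24 h and -2.66 ± 1.84 at 6 h in hyperoxia (SD, n = 4 each), with 2 of 4 arrays of 24 h above background, and was at least 4.14-fold lower at 24 h in normoxia. Its differences were -1.28 in hyperoxia and -0.99 in normoxia with the normexp correction, against -3.29 and -3.32 without it, and -2.39 and -2.33 without both 6 h arrays of replicate 3.

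Bpifb1 fell by 0.56 ± 0.07 in hyperoxia (adjusted p = 1.99e-05) and by 0.26 ± 0.07 in normoxia (adjusted p = 0.00919). Cckar fell in hyperoxia (-1.90 ± 0.33, adjusted p = 0.000303), with 1 of 4 arrays of 24 h above background, and by 0.40 ± 0.10 with the normexp correction. In normoxia it was not called (0.19 ± 0.33, adjusted p = 0.665), but with that correction it was higher at 24 h (0.35 ± 0.10, adjusted p = 0.00909). Muc5b was called in neither (0.31 ± 0.61 in hyperoxia and -0.37 ± 0.61 in normoxia), but without hyperoxia replicate 3 of 24 h, the array with the outlier flag, it was lower at 24 h in hyperoxia (-0.61 ± 0.13, adjusted p = 0.00256). In a limma fit to the 8 normoxia arrays alone, its normoxia difference was -0.37 ± 0.14 (adjusted p = 0.0575).

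The 2 probes that rose at 24 h were those with repeats. The Pigr probe was 1.34-fold higher in hyperoxia (0.42 ± 0.12, adjusted p = 0.0104) and 1.36-fold higher in normoxia (0.44 ± 0.12, adjusted p = 0.0101). The Trp63 probe was 1.28-fold higher in hyperoxia (0.35 ± 0.09, adjusted p = 0.00360) and 1.33-fold higher in normoxia (0.42 ± 0.09, adjusted p = 0.00172). Both Trp63 calls ended when its probes above background were averaged, at -0.15 ± 0.11 in hyperoxia (adjusted p = 0.274) and 0.00 ± 0.11 in normoxia (adjusted p = 0.996).

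**Figure D5:**
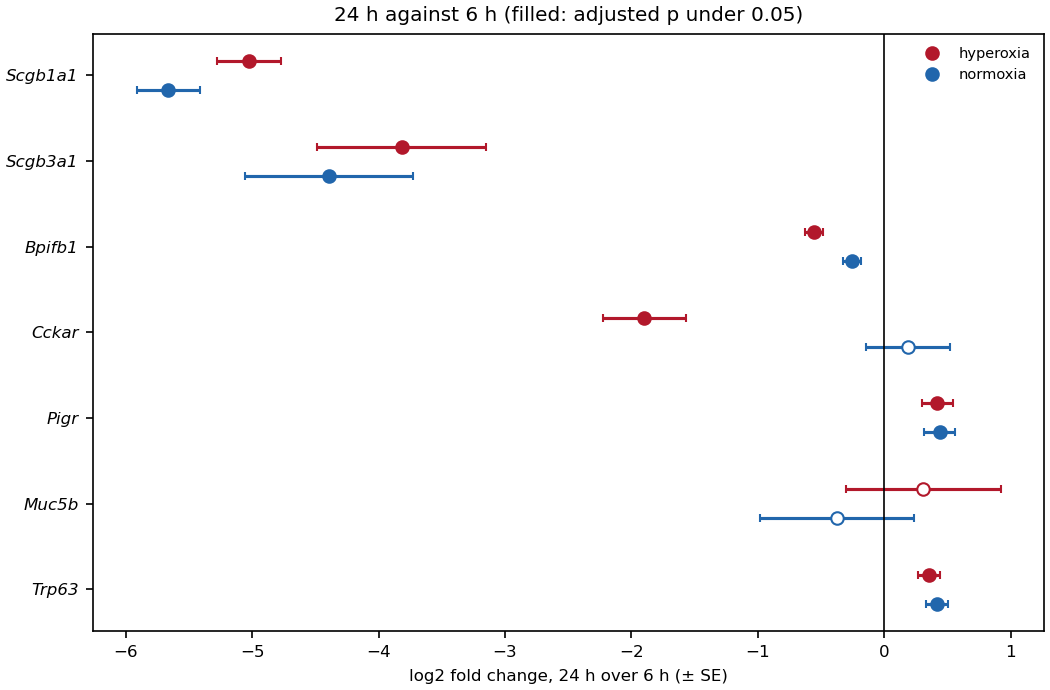
Log2 fold change of 24 h over 6 h for the 7 genes that passed the filter at both times, in hyperoxia (red) and normoxia (blue), with SE bars; filled points have an adjusted p under 0.05. Scgb1a1 lies at -5.02 in hyperoxia and -5.66 in normoxia, and only the Pigr and Trp63 probes are filled to the right of 0; the normoxia point of Scgb3a1 has 0 of 4 arrays above background at 24 h.

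RefSeq promoters on build GRCm38.p6 were searched for 5 of the 10 genes, those of Scgb3a1, Cyp2f2, Bpifa1, Bpifb1 and Pigr. Scgb3a2 was left out of the search. The promoters of Scgb3a1, Cyp2f2 and Bpifa1 are shown, the 3 genes in which a searched motif was found. Bpifb1, whose signal was also lower at 24 h than at 6 h in both conditions, and Pigr are not shown. Each stretch is the 250 bases before the start of the gene, 5′ to 3′ on the plus strand, and capitals mark a match to a searched motif.
Scgb3a1 (chr11:49663345-49663594): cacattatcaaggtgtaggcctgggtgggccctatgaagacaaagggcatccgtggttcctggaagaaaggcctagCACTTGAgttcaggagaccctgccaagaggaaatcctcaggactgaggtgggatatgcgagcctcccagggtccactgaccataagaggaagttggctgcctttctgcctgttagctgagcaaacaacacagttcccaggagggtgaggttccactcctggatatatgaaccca
Cyp2f2 (chr7:27119705-27119954): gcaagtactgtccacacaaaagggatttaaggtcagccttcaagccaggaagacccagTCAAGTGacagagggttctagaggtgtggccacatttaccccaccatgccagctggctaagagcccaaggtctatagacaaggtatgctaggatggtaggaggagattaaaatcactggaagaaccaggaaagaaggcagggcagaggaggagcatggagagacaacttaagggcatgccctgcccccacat
Bpifa1 (chr2:154142630-154142879): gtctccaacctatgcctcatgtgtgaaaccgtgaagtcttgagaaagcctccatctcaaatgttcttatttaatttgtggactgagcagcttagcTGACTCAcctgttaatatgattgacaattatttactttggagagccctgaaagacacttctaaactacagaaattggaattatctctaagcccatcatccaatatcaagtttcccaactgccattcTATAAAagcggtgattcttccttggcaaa
The letters searched, on both strands and in windows that also take in 50 bases after the start, were TGTTTAC for FOXA factors, CACTTGA for NKX2-1, TTGCAA for C/EBP factors, TGACTCA for AP-1 and TATAAA for the TATA box. Over all 32851 promoters searched 3.65% held the FOXA letters, 3.06% those of NKX2-1, 6.23% those of C/EBP, 5.20% those of AP-1 and 13.6% the TATA box. The NKX2-1 letters were found in Scgb3a1 from base -174 and, on the opposite strand, in Cyp2f2 from base -192, counted from the first base of the gene as 0. Bpifa1 held the AP-1 letters from base -155 and the TATA box from base -29. No searched letters were found in the windows of Bpifb1 and Pigr.

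Other genes of the airway epithelium and genes linked to polymeric immunoglobulin were counted from lists, not all of them particular to secretory cells. Etv5 and Lyz2 stand in 1 of these lists each and in the type II list used below. Counts over time can include genes that passed the filter at 1 time only, as Cyp2f2 did. All list counts stand beside the shares over all genes. In hyperoxia at 24 h 15.5% of all genes were called higher and 12.8% lower. Over time 25.0% were called higher and 27.3% lower in hyperoxia, and 20.6% higher and 23.5% lower in normoxia. No list was tested as a set. Of 20 other club cell genes tested, 3 rose and 1 fell in hyperoxia at 24 h. Ephx1, an epoxide hydrolase, rose by 1.44 ± 0.16 on the log2 scale (adjusted p = 7.47e-06) and Hp, the haptoglobin gene, fell by 1.02 ± 0.35 (adjusted p = 0.0429). Gsto1, a glutathione transferase gene and the brightest of the list, rose by 0.38 ± 0.11 (adjusted p = 0.0208). At 24 h against 6 h 2 of the 20 rose and 7 fell in hyperoxia, and 1 rose and 8 fell in normoxia. The list's median was 0.12 for hyperoxia at 24 h, and -0.27 in hyperoxia and -0.39 in normoxia over time.

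Of 13 mucous and goblet cell genes 1 rose and 5 fell in hyperoxia at 24 h, with a median of -0.12. Foxa3, a transcription factor of goblet cells, fell by 1.40 ± 0.17 (adjusted p = 1.75e-05), and Fcgbp, a mucus protein gene, rose by 0.87 ± 0.29 (adjusted p = 0.0387). The brightest, named Clca1 by the array but matched to no RefSeq accession, so that its place in the Clca family is uncertain, fell by 0.37 ± 0.08 (adjusted p = 0.00255). Over time 1 rose and 7 fell in hyperoxia, and 2 rose and 7 fell in normoxia.

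Of 11 airway basal cell genes 2 rose and 1 fell in hyperoxia at 24 h, with Col17a1, a hemidesmosome collagen gene, higher by 1.45 ± 0.37 (adjusted p = 0.00888) and Snai2, a transcription factor, lower by 0.64 ± 0.19 (adjusted p = 0.0198). Itga6, an integrin gene and the brightest, was not called (0.15 ± 0.11, adjusted p = 0.365). Over time 1 rose and 4 fell in hyperoxia and 1 rose and 6 fell in normoxia. Of 11 secreted defence genes 0 rose and 1 fell in hyperoxia at 24 h, Lcn2, which encodes an iron-scavenging lipocalin (-1.30 ± 0.20, adjusted p = 0.000184). Slpi, a protease inhibitor gene and the brightest, was not called (0.79 ± 0.39, adjusted p = 0.159). Over time 0 rose and 5 fell in hyperoxia, and 2 rose and 6 fell in normoxia.

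Of 15 airway epithelial transcription factors 0 rose and 3 fell in hyperoxia at 24 h, with the largest fall for Elf5 (-1.03 ± 0.27, adjusted p = 0.0106). Cebpb, the brightest, differed by 0.03 ± 0.12 (adjusted p = 0.873). Over time 2 rose and 8 fell in hyperoxia and 5 rose and 9 fell in normoxia. Of the 8 genes listed with polymeric immunoglobulin, 1 was tested, Tnfsf13b, a B cell survival factor gene (-0.04 ± 0.14 in hyperoxia at 24 h, adjusted p = 0.855). At 6 h 0 genes of any of these 6 lists were called in hyperoxia.

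Markers of other cells were counted between the same groups, and their part in the results was not tested. Over all genes 28.3% were called in hyperoxia at 24 h, and over time 52.3% in hyperoxia and 44.1% in normoxia. Of 9 ciliated cell genes 3 rose and 0 fell in hyperoxia at 24 h, Tekt1 by 1.04 ± 0.32 (adjusted p = 0.0233). Over time 0 rose and 5 fell in hyperoxia and 0 rose and 6 fell in normoxia, among them Foxj1, the master factor of ciliated cells and the brightest of the list (-1.11 ± 0.27 in hyperoxia, adjusted p = 0.00314, and -1.64 ± 0.27 in normoxia, adjusted p = 0.000296). The summed level of the 12 ciliated markers ranged from 1.55 to 1.97 in hyperoxia and 1.27 to 1.43 in normoxia at 24 h, and from 1.96 to 2.35 in hyperoxia and 1.88 to 2.32 in normoxia at 6 h, as log2 of the sum.

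Of 12 type II genes 3 rose and 4 fell in hyperoxia at 24 h, led by Cd36 (0.77 ± 0.26, adjusted p = 0.0378) and Lamp3 (-1.03 ± 0.08, adjusted p = 2.00e-07), while Ctsh, the brightest, rose by 0.44 ± 0.15 (adjusted p = 0.0427). Cd36 was measured on 13 of 16 arrays. Over time 0 rose and 10 fell in hyperoxia and 1 rose and 9 fell in normoxia, and the summed level of 13 markers ranged from 5.87 to 6.25 in hyperoxia and 5.95 to 6.17 in normoxia at 24 h, and from 6.81 to 7.33 in hyperoxia and 6.67 to 7.03 in normoxia at 6 h. Of 10 fibroblast and smooth muscle genes, all measured on 16 of 16 arrays, 7 rose over time in hyperoxia and 6 in normoxia, with 0 falls. Their summed level ranged from 10.5 to 10.6 in hyperoxia and 10.6 to 10.8 in normoxia at 24 h, and from 9.77 to 10.2 in hyperoxia and 9.85 to 10.1 in normoxia at 6 h. Tagln, the brightest, rose by 0.45 ± 0.07 in hyperoxia (adjusted p = 0.000113) and by 0.61 ± 0.07 in normoxia (adjusted p = 2.49e-05).

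Of 8 macrophage genes 1 rose in hyperoxia at 24 h, Cd68 (1.02 ± 0.09, adjusted p = 1.50e-06), and over time 2 rose and 4 fell in hyperoxia and 1 rose and 3 fell in normoxia. Most of their summed level was that of Itgam, an integrin gene, which rose over time by 1.54 ± 0.15 in hyperoxia (adjusted p = 1.53e-06) and by 1.49 ± 0.15 in normoxia (adjusted p = 1.03e-05). The summed level was 6.15 to 6.29 in hyperoxia and 5.85 to 6.19 in normoxia at 24 h, and 4.79 to 5.30 in hyperoxia and 4.82 to 5.06 in normoxia at 6 h. Of 6 neutrophil genes 1 rose in hyperoxia at 24 h, S100a8 (1.75 ± 0.39, adjusted p = 0.00333), and over time 1 rose and 3 fell in each condition. Of 6 endothelial genes 1 fell in hyperoxia at 24 h, Egfl7 (-0.31 ± 0.07, adjusted p = 0.00593), and of 7 type I and 7 lymphocyte genes 0 were called there. Over time 2 type I genes rose and 4 fell in hyperoxia and 1 rose and 3 fell in normoxia, while 1 lymphocyte gene rose and 2 fell in hyperoxia and 1 rose and 1 fell in normoxia. The brightest genes of these lists, Itgam of macrophages (0.26 ± 0.15, adjusted p = 0.223), Csf3r of neutrophils (0.00 ± 0.08, adjusted p = 0.987), Kdr of endothelium (0.07 ± 0.09, adjusted p = 0.664), Pdpn of type I cells (-0.05 ± 0.09, adjusted p = 0.752) and Cd4 of T cells (0.02 ± 0.12, adjusted p = 0.942), were not called in hyperoxia at 24 h. At 6 h 0 markers of these 8 lists were called.

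Genes whose deviations from the 4 group means were most like those of Scgb1a1 were Tmem171 (r = 0.949), Krt42 (0.938), Capn5 (0.936), Myl12b (0.923) and Hgfac (0.920), as Pearson's r over the 16 arrays among 15524 other genes with a RefSeq symbol. For the Pigr probe they were Mcf2l (r = 0.947), Pex26 (0.941), Zfp780b (0.939), Ralgds (0.934) and Trappc6a (0.934). All points share the arrays and their scaling, and these values describe the 16 arrays only.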

How the data were processed

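RNA of 16 samples was labelled with Cy3 and hybridised to 1 array each, per the labels. The authors deposited Agilent Feature Extraction 10.7.3.1 files, and per the file headers the processed signal is a background-subtracted intensity, not normalized between arrays; the mean and background signals, also intensities per the file headers, served 1 alternative. The authors' deposited value table holds log2 values with 43964 probes, whose normalization is not given in the sources used here, and served another. Spots with an outlier flag were dropped unless a probe had no other, and a probe's spots were averaged; the probe counted as well above background where over 50% of its spots did. Arrays were scaled by their 75th percentile over 55681 non-control probes. Each gene was its brightest probe, tested if well above background on 3 of 4 arrays of a group. The fit used limma 3.58.1 in R 4.3.3, with the 16 arrays in 4 group means (degrees of freedom: 12 residual, 2.23 prior), two-sided tests and Benjamini-Hochberg adjustment over 25415 genes. The fit was tested on simulated data.

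The members and lists were chosen with earlier results of these data known. Named genes were the 10 members, the 5 genes most like Scgb1a1 and Pigr, and from each other list the largest called rise and fall in hyperoxia at 24 h and the brightest gene. Names are those of the array, and 8 listed genes were found there under another symbol; array coordinates are mm9, per the file headers, and no exon annotation of that build was used here. Residuals of same-numbered hyperoxia and normoxia arrays correlated at 0.244 to 0.344 at 24 h, all above 0.1, and at 0.0863 to 0.354 at 6 h, so numbers were taken to pair arrays at 24 h. At 6 h replicates 1, 2 and 3 also lay above 0.1 (0.251, 0.254 and 0.354), and replicate 4 did not. The replicate number is also the slide column, so a pairing of samples and an effect of the column cannot be told apart. The main fit held no pairing, which entered only through the replicate blocks among the alternatives. The alternatives changed the scaling, the background correction (normexp with an offset of 50 units), the filter, the probe summary, array weights, the replicate block and the arrays used, 1 at a time. The number of arrays limits the precision.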

Additional observations from a re-analysis of the deposited data

Results flagged for a closer look

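In 3 of 36 member groups 1 array lay far from the other 3 by Dixon's test, a test that chance passes in about 1 of 20 groups. Muc5b stood at -0.66 on hyperoxia replicate 3 of 24 h, where the other 3 arrays lay between -4.49 and -4.10; the probe has 1 spot on an array, and on replicate 3 it carried an outlier flag of the Feature Extraction software. Scgb1a1 stood at -0.34 on normoxia replicate 4 of 24 h, above the other 3 at -0.82 to -0.76; without it the hyperoxia difference of Scgb1a1 was 0.89 ± 0.27 (adjusted p = 0.0256). Bpifb1 stood at -1.10 on normoxia replicate 2 of 6 h, below the other 3 at -0.87 to -0.82.

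The hyperoxia difference of Cckar changed with time, by -2.09 ± 0.47 on the log2 scale between 24 h and 6 h (limma, adjusted p = 0.00911), with 1 of 4 hyperoxia arrays of 24 h above background.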

How the results depend on the processing

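Counts of members are of the 9 genes tested, Cyp2f2 and Bpifa1 included, whose direction over time the filter favoured. Without them 4 of 7 genes fell and 2 rose over time in hyperoxia, and 3 of 7 fell and 2 rose in normoxia. Over all genes 28.3% were called in hyperoxia at 24 h and 12.3% for the change of the hyperoxia difference. Over time 52.3% were called in hyperoxia and 44.1% in normoxia. The count called in hyperoxia at 24 h was 3 and ranged from 1 to 3 when 1 array was left out; with any other setting it was 2 to 4. The count for the change of the hyperoxia difference was 1 and ranged from 1 to 2 with 1 array left out. It was 2 with quantile normalization, normexp, the authors' deposited table and array weights, where Bpifb1 also passed, and 2 with the replicate block within each time, where Scgb1a1 passed (0.64 ± 0.13, adjusted p = 0.0110). The block over all arrays changed no member's call, and the block within each time changed no call other than that of Scgb1a1 here and of Scgb3a1 at 24 h. The count at 6 h was 0 under every setting run. Over time, both directions together, it was 7 to 9 in hyperoxia (8 with all arrays) and 6 to 7 in normoxia (7); with normexp the split in normoxia was 3 higher and 3 lower, against 2 and 5, as Cckar was gained and Cyp2f2 and Bpifa1 were lost, and in hyperoxia 2 and 5, against 2 and 6. Over all genes, the count at 6 h was 83, but 566 with array weights, 29 in a fit to the 8 arrays of the contrast, and 44 to 193 with 1 array left out (193 without hyperoxia replicate 3 of 6 h, 55 without hyperoxia replicate 4, 44 without normoxia replicate 4 and 54 without normoxia replicate 1 of 6 h); the count for the difference was 3120, but 5744 with array weights and 4974 without hyperoxia replicate 3 of 6 h. The cause was not tested.

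Differences that changed sign were uncalled in the full fit, apart from Trp63 over time in hyperoxia, which was -0.15 with averaged probes. With normexp, hyperoxia less normoxia was -0.014 for Trp63 at 6 h and -0.010 for Bpifa1 at 24 h, Muc5b over time in normoxia was 0.079, and the change of the hyperoxia difference was -0.22 for Scgb3a1, -0.29 for Bpifa1, 0.0093 for Pigr and 0.010 for Trp63. With array weights it was 0.11 for Pigr, and Scgb3a1 at 6 h was -0.076. With the authors' table it was -0.012 for Scgb3a1. Without both 6 h arrays of replicate 3, a choice made after seeing the data, it was -0.063 for Bpifa1 and 0.036 for Pigr, and Muc5b at 6 h was -0.0038. With 1 array left out, the 6 h hyperoxia difference ranged from -0.032 to 0.35 for Scgb1a1, -0.33 to 0.90 for Scgb3a1, -0.035 to 0.051 for Trp63, -0.18 to 0.0062 for Pigr, -0.051 to 0.10 for Muc5b, -0.18 to 0.031 for Cckar and -0.36 to 1.53 for Bpifa1. At 24 h it ranged from -0.12 to 0.0098 for Trp63 and -0.22 to 1.06 for Muc5b, and Muc5b over time in hyperoxia from -0.61 to 0.67. The change of the hyperoxia difference ranged from -0.96 to 0.93 for Bpifa1, -0.12 to 0.0036 for Trp63, -0.087 to 0.10 for Pigr, -0.24 to 1.04 for Muc5b and -0.0055 to 1.22 for Scgb3a1.

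Signals near background limit Scgb3a1, Cyp2f2 and Bpifa1 at 24 h and Cckar in hyperoxia at 24 h. Their folds there depend on the background correction and its offset, which were not run apart. Of the genes named from other lists, Col17a1, Elf5, Fcgbp, Cd36, S100a8 and Tekt1 were not measured on every array. How far their differences depend on the background correction was not tested. Time is one with slide, oxygen with slide row and replicate number with slide column, and the number of arrays limits small differences.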
